A study of Mus musculus with 8 samples.

Results

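The 10 genes described here were measured in whole lung RNA of Fra-2 transgenic mice: the scavenger receptors Marco, Msr1, Cd36, Scarb1, Stab1 and Cd163, the lectin receptors Clec7a and Siglec5, and the lipid genes Pparg and Fabp1. They were taken by the gene symbol of the platform annotation, which gave 22 spots for the 10 genes, of 31465 spots and 20863 genes in all. Spots of Siglec5 carry the current mouse symbol Siglecf. The genes were selected on the log2 levels of these same 8 mice, with the difference of Marco between the genotypes already known. Their differences between the genotypes are therefore given as a description and support nothing further.

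The study set 4 mice overexpressing Fra-2 from a transgene (Fra-2 TG) against 4 wild-type mice. All 8 were C57BL/6 and 8 weeks old, and no treatment is recorded. Each mouse had 1 single-colour Agilent array of its lung RNA, and levels are given as the log2 of the normalised spot intensity. Fra-2, encoded by Fosl2, is a subunit of the AP-1 transcription factors. The promoter that drives the transgene is not given in the sources used here. Fosl2 itself was read by 2 spots that went opposite ways, with log2 differences of -0.75 (SE 0.31) and 2.45 (SE 0.47), so the array alone did not check the genotype labels. Alveolar type 2 cell genes, as a mark of lung, had a summed log2 level of 18.26 to 18.43 in transgenic mice and 18.36 to 18.45 in wild-type mice. Of these genes, Sftpc and Sftpd read 15.9972 or higher in all 8 mice, at or near the top of the intensity scale. Such bright spots make up much of the sum and could hardly differ between mice. The narrow range of the sum therefore cannot show that lung content was equal. Mouse 4 of each genotype was the least like its group: its mean correlation with the other mice of the same genotype was 0.978 in transgenic and 0.974 in wild-type mice, while the other 6 mice had 0.981 to 0.983.

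Scavenger receptors are surface proteins of macrophages and some endothelial cells that bind modified lipoproteins, bacteria, dying cells and particles and carry them inside. Alveolar macrophages, which clear inhaled material and spent surfactant, are set up by GM-CSF and the nuclear receptor PPAR-gamma, and in mice they carry Marco and Siglec-F on their surface. Whole lung RNA mixes these cells with interstitial macrophages, endothelium, epithelium and other leukocytes. In such RNA, fewer cells of a type and less RNA per cell cannot be told apart.

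Marco had the widest gap between the genotypes of the 10 genes. It encodes the class A scavenger receptor of that name, a collagen-like receptor that binds unopsonised bacteria and particles. Its log2 level was 9.68, 9.71, 10.12 and 9.54 in transgenic mice 1 to 4, against 11.70, 12.44, 11.57 and 11.65 in wild-type mice 1 to 4. Every transgenic lung lay below every wild-type lung, and the highest transgenic value was more than a log2 unit under the lowest wild-type value. Marco averaged 9.76 ± 0.25 in transgenic and 11.84 ± 0.40 in wild-type lung (SD, n = 4 each). These means differed by -2.08 log2 units (SE 0.22), which is 4.22-fold lower in transgenic lung. Wild-type mouse 2 was the highest of its group, and without it the difference was -1.88. Over all settings tried the difference ran from -2.20 to -1.88. Of the 13251 genes whose 8 values all lay above the median of the table (log2 4.74, used here as the floor for dim signals), Marco had the tenth most negative difference. Marco has 1 spot, so no second probe reads it.

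**Figure D1:**
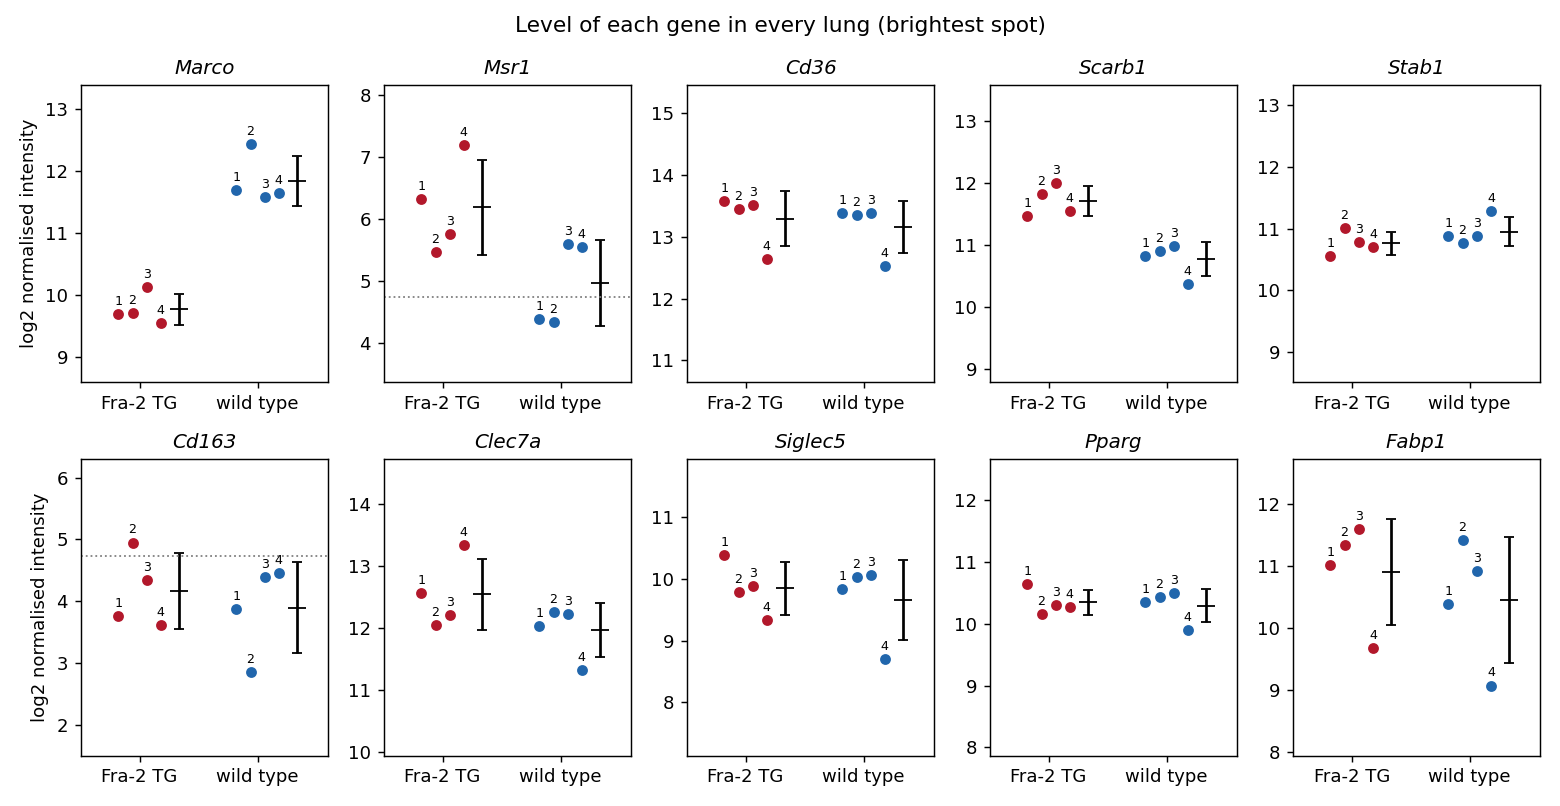
Log2 normalised intensity of the 10 genes in every lung, with 4 Fra-2 TG mice (red, left) and 4 wild-type mice (blue, right) in each panel; figures beside points are mouse numbers, bars are mean ± SD, every panel spans the same number of log2 units, and the dotted line is the floor for dim signals at 4.74. The Marco and Scarb1 groups do not overlap, Marco being lower and Scarb1 higher in transgenic lung, while Cd36, Siglec5 and Fabp1 are lowest in mouse 4 of both genotypes.

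In the fit over all genes (limma, Benjamini-Hochberg adjusted p under 0.05), 1 of the 10 genes was past the threshold, Marco, where 0.216% of all genes were and 0.0911% were lower in transgenic lung. The groups did not overlap for 2 of the 10, Marco and Scarb1, where 6.53% of all genes had groups without overlap, 3.99% with transgenic mice higher and 2.54% with transgenic mice lower. At an unadjusted p under 0.05, the measure used below for gene lists, stood 9.15% of all genes. Both counts of the 10 genes come from the comparison that the choice of genes used, and nothing is read from them. Marco was no longer past the adjusted threshold without transgenic mouse 1 (difference -2.05, adjusted p = 0.0525), without transgenic mouse 2 (-2.06, 0.0525) or without both mice numbered 4 (-2.07, 0.0853). Among the 10, 8 differences were positive and 2 negative, with a median of 0.23, against 10925 positive and 9938 negative with a median of 0.01 over all genes. Without wild-type mouse 4 the 2 negative differences became 6. Without both mice numbered 4 there were 3, with a median of 0.12.

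The stretch upstream of Marco is shown because Fra-2 belongs to AP-1 and Marco is the one of the 10 genes that differed most; those of Siglecf and Fabp1, alveolar macrophage genes whose groups overlapped, stand beside it for comparison. RefSeq promoter sequences (build GRCm38.p6) were found for 8 of the 10 genes, and the 250 bases before the start site were searched on both strands for the AP-1 letters TGANTCA and for GAGGAA, letters at the core of sites bound by the macrophage factor PU.1. The lines run 5′ to 3′ on the gene's strand from chr1:120505025-120505274 (minus strand, Marco), chr7:43351091-43351340 (plus strand, Siglecf) and chr6:71199629-71199878 (plus strand, Fabp1), with matches to GAGGAA or its reverse complement in capitals.
Marco: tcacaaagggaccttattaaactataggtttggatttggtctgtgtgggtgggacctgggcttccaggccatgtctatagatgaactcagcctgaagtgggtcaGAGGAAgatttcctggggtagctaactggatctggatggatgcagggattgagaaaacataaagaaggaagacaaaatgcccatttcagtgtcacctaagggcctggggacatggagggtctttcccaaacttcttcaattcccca
Siglecf: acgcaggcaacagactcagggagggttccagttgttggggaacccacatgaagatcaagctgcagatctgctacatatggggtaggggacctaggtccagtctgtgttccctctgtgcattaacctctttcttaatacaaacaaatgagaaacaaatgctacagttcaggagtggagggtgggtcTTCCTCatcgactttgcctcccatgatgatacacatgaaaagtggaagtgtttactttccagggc
Fabp1: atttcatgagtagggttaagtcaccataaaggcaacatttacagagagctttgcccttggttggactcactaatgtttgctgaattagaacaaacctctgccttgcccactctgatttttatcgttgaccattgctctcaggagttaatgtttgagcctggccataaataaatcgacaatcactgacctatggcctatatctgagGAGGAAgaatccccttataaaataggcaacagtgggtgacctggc
TGANTCA was found in 0 of the 8 genes, and 6.75% of 32851 promoters of this length hold it. Each of the 3 sequences holds 1 match to GAGGAA, at positions -146, -65 and -45 relative to the start site. Of all promoters, 23.3% hold it at least once. Among the genes searched but not shown, Stab1, Clec7a and a Pparg promoter hold a match. Cd36, Cd163 and the other Pparg promoters hold none. With no TGANTCA found, no match overlaps the other motif. These matches describe letters in a short window and say nothing of binding.

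Msr1, the class A macrophage receptor for modified lipoproteins, was dim. Its brighter spot had levels of 6.32, 5.47, 5.76 and 7.20 in transgenic mice 1 to 4, against 4.39, 4.33, 5.60 and 5.54 in wild-type mice 1 to 4. All 4 transgenic values were above the floor and 2 of the 4 wild-type values were under it, and transgenic mouse 2 lay below wild-type mice 3 and 4. Msr1 averaged 6.19 ± 0.76 in transgenic and 4.97 ± 0.70 in wild-type lung (SD, n = 4 each). The measured means differed by 1.22 log2 units (SE 0.45, limma adjusted p = 0.470). With values raised to the floor Msr1 was 2.05-fold higher in transgenic lung at this spot. That figure allows for the floor and not for the spread over mice. An offset of 32 before the log2, which shrinks dim differences, brought the log2 difference to 0.73. The second spot of Msr1 gave 0.62 (SE 0.43). Both class A receptors are macrophage genes, and in these lungs Marco had a negative difference and both Msr1 spots a positive one.

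The class B receptors Scarb1 and Cd36 are close relatives. Scarb1, which takes up cholesterol esters from HDL, had levels of 11.47, 11.82, 12.01 and 11.55 in transgenic mice 1 to 4, against 10.82, 10.90, 10.99 and 10.37 in wild-type mice 1 to 4. All 4 transgenic lungs lay above all 4 wild-type lungs. Scarb1 averaged 11.71 ± 0.25 in transgenic and 10.77 ± 0.28 in wild-type lung (SD, n = 4 each), a gap of 0.94 log2 units (SE 0.19) or 1.92-fold. The dimmer spot of Scarb1 gave 1.10 (SE 0.48), with transgenic mouse 4 (7.94) below wild-type mouse 3 (8.14). Scarb1 was not past the threshold in the fit over all genes, and it was past it when the variance was modelled with a trend and robustly (adjusted p = 0.0250) and with an offset of 32 without both mice numbered 4 (adjusted p = 0.0379). Its difference ran from 0.81 to 1.02 over all settings.

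Cd36, the fatty acid translocase, is found on macrophages, capillary endothelium and fat cells. It stood at 13.57, 13.44, 13.51 and 12.64 in transgenic mice 1 to 4, against 13.39, 13.35, 13.38 and 12.53 in wild-type mice 1 to 4. The groups overlapped, and mouse 4 was the lowest of each by a wide margin. The log2 difference was 0.13 (SE 0.28). Without both mice numbered 4 it was 0.14 with a smaller error (SE 0.09). Genes of the other cells that hold Cd36 are given beside it. Of 12 endothelial genes 0 passed the threshold (limma; 2 had an unadjusted p under 0.05), with a summed log2 level of 16.92 to 17.33 in transgenic mice and 16.91 to 17.17 in wild-type mice. Of 10 fat cell genes 0 passed (limma; 1 had an unadjusted p under 0.05), with 13.37 to 14.90 in transgenic mice and 12.86 to 14.95 in wild-type mice. Their part in the level of Cd36 was not tested.

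Stab1, the class H receptor of sinusoidal endothelium and some macrophages, had levels of 10.55 to 11.01 in transgenic mice and of 10.76 to 11.29 in wild-type mice. The groups overlapped, averaging 10.76 ± 0.19 in transgenic and 10.95 ± 0.23 in wild-type lung (SD, n = 4 each), and the means differed by -0.19 (SE 0.16), or by -0.06 without both mice numbered 4. Cd163, the macrophage receptor for haptoglobin bound to haemoglobin, lay at 3.61 to 4.95 in transgenic mice and at 2.86 to 4.46 in wild-type mice. Only transgenic mouse 2 was above the floor, so no fold is given for Cd163.

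Clec7a encodes Dectin-1, the receptor for fungal beta-glucan on macrophages, dendritic cells and neutrophils. Its levels were 12.56, 12.05, 12.21 and 13.34 in transgenic mice 1 to 4, against 12.03, 12.26, 12.22 and 11.32 in wild-type mice 1 to 4. The highest and the lowest of all 8 values were the mice numbered 4, and the other 6 lay within 12.03 to 12.56. The log2 difference was 0.58 (SE 0.32), and 0.10 (SE 0.16) without both mice numbered 4. General leukocyte genes moved in the same mice: the mean of 7 such genes stood 0.76 above the wild-type mean in transgenic mouse 4 and 0.65 below it in wild-type mouse 4 (a deviation of -0.65). Its part in the level of Clec7a was not tested.

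Siglec5 (Siglecf) encodes Siglec-F, a sialic acid receptor of mouse alveolar macrophages and eosinophils. Its brighter spot had levels of 10.38, 9.78, 9.89 and 9.33 in transgenic mice 1 to 4, against 9.83, 10.03, 10.06 and 8.70 in wild-type mice 1 to 4. The groups overlapped, and mouse 4 was again the lowest of each. The log2 difference was 0.19 (SE 0.35) at the brighter spot and 0.32 (SE 0.64) at the dimmer one. Without wild-type mouse 4 the brighter spot gave -0.13. Of 6 eosinophil genes 0 passed the threshold (limma; 0 at an unadjusted p under 0.05), all 6 differences being positive. Epx was under the floor in 4 transgenic and 4 wild-type mice and Prg2 in 3 and 4, so their signs mean little. Without both mice numbered 4, 5 differences were positive and 1 negative, with a median of 0.03. The summed log2 level was 12.90 to 13.58 in transgenic mice and 11.44 to 13.17 in wild-type mice. It was set mostly by Ear11 (Rnase2a), which was lowest in wild-type mouse 4 (11.38). These genes are named after their values were seen.

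Fabp1, a fatty acid carrier known best from liver and gut and also made by mouse alveolar macrophages, varied most within the genotypes. Its levels were 11.01, 11.34, 11.60 and 9.67 in transgenic mice 1 to 4, against 10.39, 11.43, 10.93 and 9.07 in wild-type mice 1 to 4. The groups overlapped over nearly their whole range. The SDs were 0.86 and 1.02 (n = 4 each) and the log2 difference was 0.45 (SE 0.58). It was 0.86 without transgenic mouse 4 and -0.01 without wild-type mouse 4. Of 8 liver genes 0 passed the threshold (limma; 0 at an unadjusted p under 0.05). Their summed log2 level was 7.97 to 9.43 in transgenic mice and 8.48 to 8.80 in wild-type mice. In all 8 mice 2 of these genes (Serpina1a and Ahsg) were above the floor and 2 (Fgb and Ttr) under it, and albumin (Alb) was under it in 3 transgenic and 3 wild-type mice. These genes are named after their values were seen.

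Pparg, the nuclear receptor that drives lipid handling in alveolar macrophages, was read by 10 spots. Whether these are 1 probe printed repeatedly could not be told from the spot numbers. Within a mouse the SD over the 10 spots was 0.07 to 0.15. Averaged over the 10 spots, Pparg stood at 10.43, 9.97, 10.04 and 10.14 in transgenic mice 1 to 4, against 10.31, 10.24, 10.29 and 9.91 in wild-type mice 1 to 4. The groups overlapped. The log2 difference was 0.05 (SE 0.17) at the brightest spot, and over all 10 spots it ran from -0.12 to 0.07, positive at 3 and negative at 7.

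**Figure D2:**
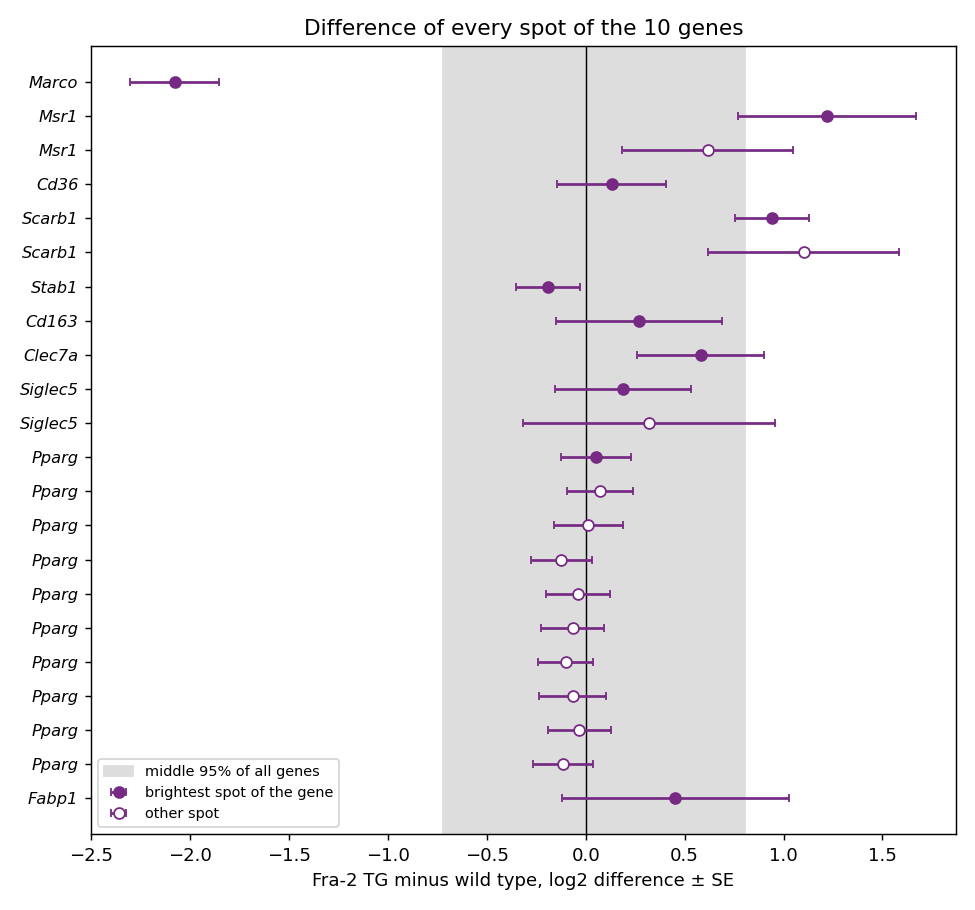
Log2 difference (Fra-2 TG minus wild type) with its SE for each of the 22 spots, by gene; filled points are the brightest spot of a gene, open points its other spots, and the grey band runs from -0.72 to 0.81 and holds the middle 95% of all genes. Marco lies far to the left of the band, both Scarb1 spots and the brighter Msr1 spot to its right, and the 10 Pparg spots between -0.12 and 0.07.

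Marco was then set beside a list of other genes of alveolar macrophages. The list is not exclusive to these cells: Cidec is also on the fat cell list and Mrc1 on that of interstitial macrophages. Its level in whole lung is therefore not a measure of alveolar macrophage number. Of 24 listed genes 23 were measured, all above the floor in every mouse, and 0 passed the threshold (limma; 4 at an unadjusted p under 0.05, all higher in transgenic lung). The differences were positive in 17 and negative in 6, with a median of 0.29, and ran from -0.32 (Spp1, named as the lowest after its value was seen) to 1.23, while Marco stood at -2.08. The summed log2 level of the list was 17.30 to 17.72 in transgenic mice and 16.72 to 17.40 in wild-type mice. Without both mice numbered 4, 13 differences were positive and 10 negative, with a median of 0.03. Averaged over the 23 genes, the deviation from the wild-type mean was 0.47, 0.08, 0.08 and 0.41 in transgenic mice 1 to 4, against 0.10, 0.18, 0.10 and -0.37 in wild-type mice 1 to 4. For Marco the same measure was -2.16, -2.13, -1.72 and -2.30 in transgenic mice, against -0.14, 0.60, -0.27 and -0.19 in wild-type mice. Marco was thus low in each transgenic mouse, where the average of the list was 0.08 to 0.47 above the wild-type mean. That mean was lowered by wild-type mouse 4 (-0.37). For the list, transgenic mice 2 and 3 (0.08 each) lay below wild-type mice 1 to 3 (0.10 to 0.18). The difference between Marco and the list was not tested.

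**Figure D3:**
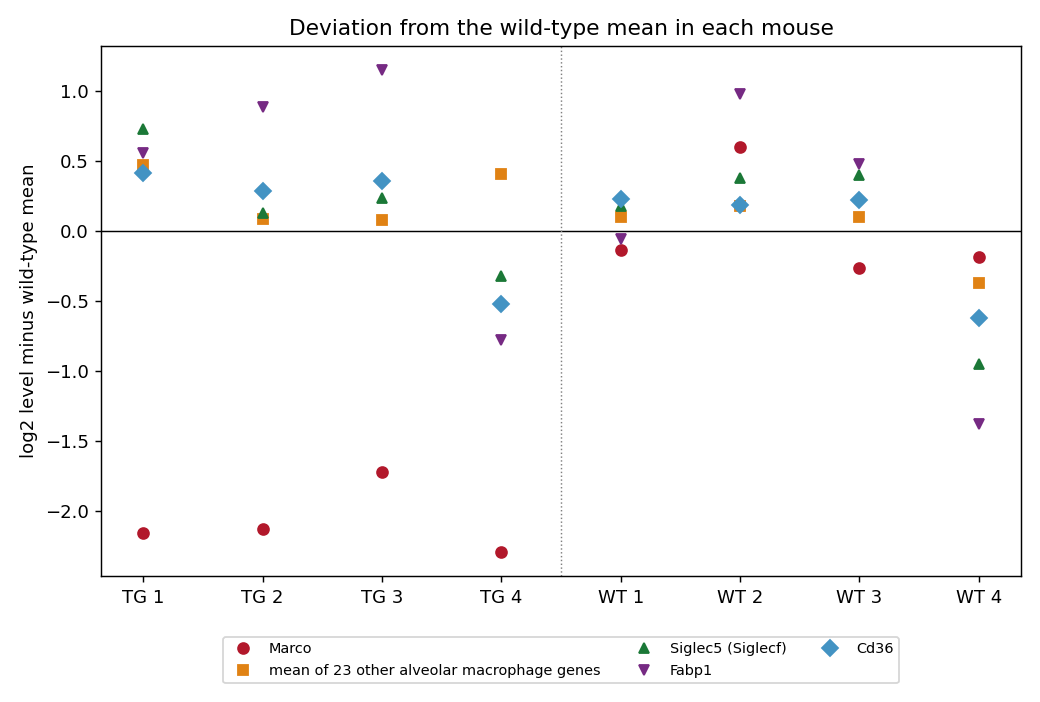
Deviation of the log2 level from the wild-type mean in each of the 8 mice (Fra-2 TG left, wild type right), for Marco, Siglec5, Fabp1, Cd36 and the mean of 23 other alveolar macrophage genes. Marco lies at -1.72 or lower in the 4 transgenic mice, where the list mean is 0.08 to 0.47, and Siglec5, Fabp1 and Cd36 are low in mouse 4 of both genotypes.

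Of the 23 alveolar macrophage genes 5 had groups that did not overlap, where 6.53% of all genes did. They were the 4 with the smallest p, all higher in transgenic lung, and Cd9 (-0.11, SE 0.10), named after its value was seen. F7, coagulation factor VII, averaged 9.51 ± 0.21 in transgenic and 8.78 ± 0.20 in wild-type lung (difference 0.73, SE 0.16, limma adjusted p = 0.185). Cd200r1, an inhibitory receptor of myeloid cells, averaged 7.80 ± 0.54 in transgenic and 6.57 ± 0.24 in wild-type lung (1.23, SE 0.27, limma adjusted p = 0.193). Itgax, the integrin CD11c, differed by 0.62 (SE 0.21) and Fabp5, a fatty acid carrier, by 0.62 (SE 0.23), which was 0.39 without both mice numbered 4 (0.40 with only the wild-type one left out). In the growth factor and PPAR-gamma axis that forms these cells, 0 of 15 genes passed (limma; 4 at an unadjusted p under 0.05, of which 3 were positive) and the median was 0.03. Csf2, which encodes GM-CSF, differed by 0.99 (SE 0.23, limma adjusted p = 0.217), its receptor chains Csf2rb2 by 0.74 (SE 0.27) and Csf2rb by 0.45 (SE 0.19), and the transcription factor Cebpb by -0.56 (SE 0.21). With the mean of all its spots Csf2 differed by 0.60. Without both mice numbered 4, Csf2rb2 differed by 0.41 and Csf2rb by 0.19, and the median of this list was -0.04. Of 18 PPAR-gamma target and lipid handling genes 0 passed (limma; 2 at an unadjusted p under 0.05, both higher), with 12 negative differences and a median of -0.09; Ch25h, a cholesterol hydroxylase, differed by 1.28 (SE 0.36, limma adjusted p = 0.316).

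Among 19 other scavenger receptors, 0 passed (limma; 3 at an unadjusted p under 0.05, of which 2 were negative) and the median was -0.06. Cd163l1, a relative of Cd163, had a transgenic mean under the floor, 4.23 ± 0.39 against 5.41 ± 0.30 in wild-type lung. With values raised to the floor Cd163l1 was 1.58-fold lower, a figure that does not allow for the spread over mice. The fitted difference was -1.18 (SE 0.23, limma adjusted p = 0.150), or -0.55 with an offset of 32. Stab2, the relative of Stab1, averaged 7.04 ± 0.17 in transgenic and 6.46 ± 0.12 in wild-type lung (0.58, SE 0.13, limma adjusted p = 0.193). Cxcl16, a chemokine that as a membrane protein also binds oxidised LDL, was lower in all 4 transgenic mice (-0.48, SE 0.12, limma adjusted p = 0.242). The groups did not overlap for these 3 of the 19, where 6.53% of all genes had groups without overlap. They were named for their small p, and nothing is read from this count. Of the other fatty acid binding proteins 0 of 9 passed (limma; 3 at an unadjusted p under 0.05, all higher). Fabp7, the brain-type carrier, was under the floor in all wild-type mice and stood at 5.81, 6.33, 5.27 and 7.59 in transgenic mice 1 to 4. With values raised to the floor it was 2.86-fold higher in transgenic lung, again without allowing for the spread (fitted difference 2.36, SE 0.46, limma adjusted p = 0.150). Fabp7 was past the threshold with a trend and robust variance (adjusted p = 0.0363). An offset of 32 brought it to 1.25.

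Other myeloid cells were followed through their own lists. Of 17 genes of interstitial and recruited macrophages 0 passed (limma; 4 at an unadjusted p under 0.05, of which 3 were positive), with a median of 0.27 that became -0.07 without both mice numbered 4. Trem2, a lipid-sensing receptor, differed by 1.22 (SE 0.36), Gpnmb, a lysosomal glycoprotein of lipid-laden macrophages, by 1.02 (SE 0.33) and Lyve1, a hyaluronan receptor also of lymphatic endothelium, by 0.53 (SE 0.13), with limma adjusted p of 0.350, 0.404 and 0.246. Pf4, the chemokine platelet factor, went the other way, with -0.53 (SE 0.18, limma adjusted p = 0.438). Trem2 differed by 0.70 without both mice numbered 4, and Gpnmb by 0.67 without wild-type mouse 4. Of 10 monocyte genes 0 passed (limma; 3 at an unadjusted p under 0.05, of which 2 were positive), with 7 positive and 3 negative differences and a median of 0.13. Without both mice numbered 4, the monocyte list had 5 positive and 5 negative differences, with a median of -0.04. The chemokine receptor Ccr2 differed by 0.52 (SE 0.18) and Plac8 by 0.87 (SE 0.38), or 0.30 without both mice numbered 4. Nr4a1, both a gene of patrolling monocytes and an immediate early gene, averaged 12.96 in transgenic and 14.08 in wild-type lung, the brightest of the list in wild-type lung, and differed by -1.12 (SE 0.32). With Nr4a1 in it, the summed log2 level of the list was 14.60 to 14.81 in transgenic mice and 15.03 to 15.36 in wild-type mice. Of 12 dendritic cell genes 0 passed (limma; 4 at an unadjusted p under 0.05) and of 9 neutrophil genes 0 passed (limma; 0 at an unadjusted p under 0.05), and the neutrophil list had a summed log2 level of 15.90 to 16.56 in transgenic mice and 16.28 to 17.13 in wild-type mice. It had 3 positive and 6 negative differences, with a median of -0.32. Leaving out both mice numbered 4 gave 1 positive and 8 negative, with a median of -0.49.

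Around Dectin-1, 0 of 15 C-type lectin and Toll receptors passed (limma; 3 at an unadjusted p under 0.05, of which 2 were positive; median 0.01). Cd209a, a lectin of dendritic cells, differed by 0.56 (SE 0.18) and Tlr4, the receptor for lipopolysaccharide, by 0.32 (SE 0.13), or 0.21 without both mice numbered 4. Clec5a, a lectin receptor of myeloid cells, had the opposite sign (fitted difference -1.02, SE 0.33). Its values were under the floor in 4 transgenic and 2 wild-type mice, so no fold is given for it. Of 13 Dectin-1 signalling genes 0 passed (limma; 2 at an unadjusted p under 0.05, both lower; median 0.08): the cytokine gene Il1b differed by -1.01 (SE 0.35) and the prostaglandin synthase Ptgs2 by -0.90 (SE 0.32). Without both mice numbered 4, the Dectin-1 signalling list had 2 positive and 11 negative differences, with a median of -0.15. The median of the lectin and Toll list was then -0.12. Around Cd163, 0 of 14 haemoglobin and haem handling genes passed (limma; 2 at an unadjusted p under 0.05, both lower). The beta-globin gene Hbb-bs differed by -1.38 (SE 0.45) and the haem carrier Hpx by -0.54 (SE 0.21), or -0.27 without both mice numbered 4. Of 8 other Siglecs 0 passed (limma; 0 at an unadjusted p under 0.05).

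**Figure D4:**
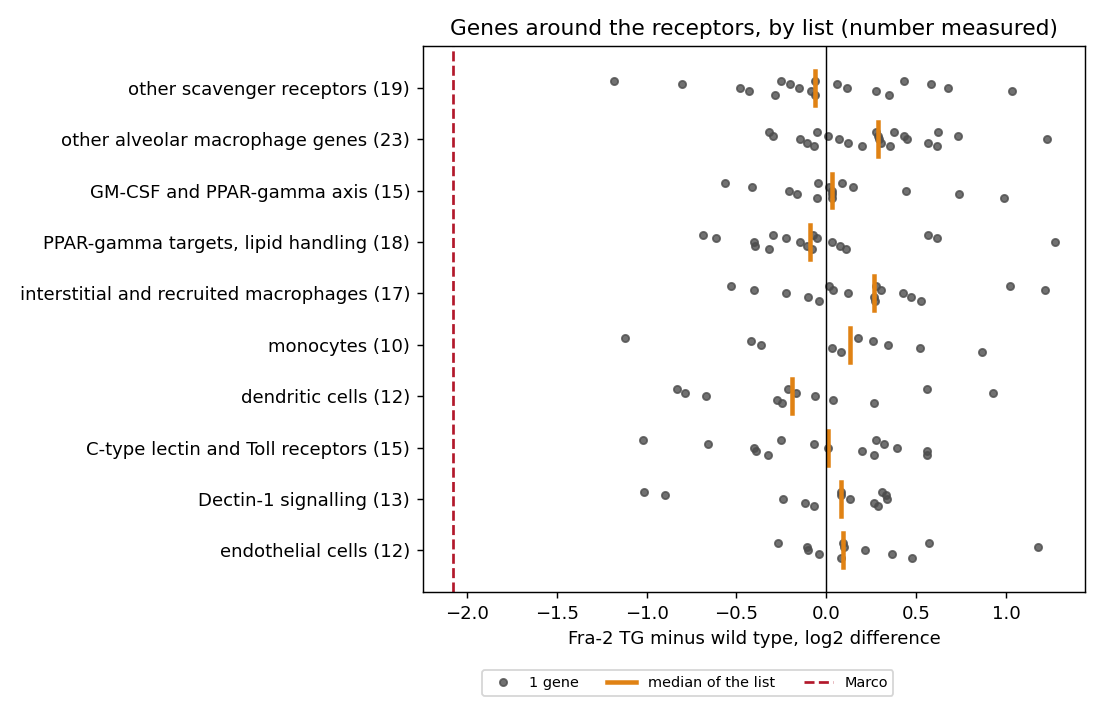
Log2 difference (Fra-2 TG minus wild type) of each measured gene in 10 lists around the receptors, with the list's median (orange) and the difference of Marco (dashed red line, -2.08). The lists are the 10 named on the axis, without the haem list that holds Hbb-bs (-1.38). None of their genes is as negative as Marco, the lowest being Cd163l1 at -1.18.

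The genes most like Marco were sought by the root mean square of the mouse-by-mouse gap between profiles, each taken relative to its own wild-type mean, over 8 mice and 13250 other genes above the floor throughout. The nearest was Xpnpep2, a membrane aminopeptidase, with a gap of 0.37. Next came Gal, the neuropeptide galanin (0.39), Klrb1b, a natural killer cell receptor (0.44), Esm1, an endothelial proteoglycan (0.44), and Klra9, a receptor of the Ly49 family (0.45). Xpnpep2 stood at 7.64, 7.52, 7.40 and 6.76 in transgenic mice 1 to 4, against 8.99, 9.27, 9.05 and 9.03 in wild-type mice 1 to 4. Gal stood at 7.17, 7.06, 6.95 and 6.88 in transgenic mice, against 8.90, 8.99, 8.38 and 8.41 in wild-type mice. For both genes every transgenic mouse lay below every wild-type mouse. The 5 genes were picked for this likeness, so their differences, from -2.21 (Esm1) to -1.65 (Gal), are a description. With the mean of all its spots Xpnpep2 differed by -0.86, and Klra9 and its near copies may share a spot's signal.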

How the data were processed

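Lung RNA of 4 Fra-2 TG and 4 wild-type mice, labelled with Cy5, was hybridised to single-colour Agilent arrays, per the labels. The authors deposited 1 linear intensity per spot and mouse, for 62976 spots. R 2.15.1 and limma 3.14.4 are named in the submitters' processing notes, without the steps run. The values share 1 distribution over the arrays (median 26.6 on each), so other scalings change little. Background correction is unknown, and no flags for saturated or dim spots were used.

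Of the spots, 31465 had 1 gene symbol and 31511 were unnamed here. Symbols were updated by RefSeq accession to GRCm38.p6 (29050 spots matched), giving 20863 genes. The spot with the highest mean log2 over 8 arrays stood for its gene. The log2 intensity, with no offset, was fitted with limma 3.58.1 in R 4.3.3 (lmFit, eBayes, group only), and p-values were adjusted over all genes by the Benjamini-Hochberg method (threshold 0.05). Differences are Fra-2 TG minus wild type with the moderated SE. The floor of 4.74 is the median of all log2 values. A fold with a group partly or wholly under the floor is a bound, with values raised to the floor. Such a bound allows for the floor and not for the spread over mice. A list's summed log2 level is the log2 of its summed intensities.

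The genes followed, the 21 lists and the settings were chosen with earlier results of these data known. The text names all 10 genes, up to 4 genes with the smallest p from a described list, and the 5 genes most like Marco. The fit was tested on simulated data, with 50 genes shifted at each of 4 sizes. Of those shifted by 0.5, 1, 2 and 4 log2 units, 2%, 46%, 70% and 98% passed the threshold, with 2 false calls. A gene not past the threshold is therefore not shown to be unchanged. Same-numbered mice are not said to be paired: the correlations of their deviations from the group means were 0.15, -0.01, 0.18 and 0.09 for numbers 1 to 4. Figures were drawn with matplotlib 3.10.9. The number of arrays limits the precision.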

Additional observations from a re-analysis of the deposited data

Results flagged for a closer look

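Each group of 4 mice was searched for a mouse far from the other 3 (gap to the nearest mouse, as a share of the group's range, above Dixon's critical value). Of 104 groups, 11 held such a mouse, and chance gives about 5%. Wild-type mouse 2 was high for Marco (12.44, the other 3 at 11.57 to 11.70). For Cd36, transgenic mouse 4 was low (12.64, the others 13.44 to 13.57), and so was wild-type mouse 4 (12.53, the others 13.35 to 13.39). Wild-type mouse 4 was low at both spots of Siglec5 (8.70, the others 9.83 to 10.06, and 4.20, the others 6.53 to 6.90) and for Esm1 (11.02, the others 11.51 to 11.58). Transgenic mouse 4 was high for Cebpb (12.81, the others 12.46 to 12.51) and the chemokine receptor gene Ccr7 (12.75, the others 11.58 to 11.73) and low for the lectin gene Clec5a (3.05, the others 3.81 to 3.96, all under the floor, where values have no reliable order). Transgenic mouse 1 was low for Lyve1 (12.86, the others at 12.99 or just above), and transgenic mouse 3 was high for the endothelial gene Emcn (11.04, the others 10.34 to 10.45). Of these 11, 8 were mice numbered 4, which also stood apart over all genes; the cause was not tested.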

How the results depend on the processing

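Marco was past the threshold in 14 of 18 alternative fits and negative in all 18. It was not past with the mouse number as a replicate block (difference -2.08, adjusted p = 0.125), without both mice numbered 4 (-2.07, 0.0853) and without transgenic mouse 1 or 2. With 1 mouse left out its difference ran from -2.20 to -1.88, the number of the 10 genes past the threshold from 0 to 1 and the number with a negative difference from 2 to 6 (6 without wild-type mouse 4). The count past the threshold was 2 (Marco and Scarb1) with a trend and robust variance and with an offset of 32 without both mice numbered 4, and 0 with the replicate block or without both mice numbered 4. Over all genes, 45 were past the threshold, 80 and 88 with offsets of 16 and 32, 71 with dim genes left out, 118 with a trend and robust variance, 5 with the replicate block, 17 without both mice numbered 4 and 200 with those left out and an offset of 32. With 1 mouse left out there were 17 to 38. The labels give same-numbered mice a shared number and say nothing of pairing or a shared batch. Of the 4 transgenic mice, 3 correlated best with the wild-type mouse of their own number. Whether same-numbered mice were handled together was not tested. Median centring and quantile normalization left these counts as they were. For members near 0, the sign turned in 5 of 18 fits for Pparg and in 1 of 18 each for Cd36, Siglec5 and Fabp1. For Cd163 it turned in 1 of 17, as the fit with dim genes left out did not hold Cd163. Of the list genes named, Fabp7, Cxcl16, Gpnmb, Pf4 and Hbb-bs were each past the threshold in 1 of 18 fits. Their lowest limma adjusted p were 0.0363, 0.0364, 0.0294, 0.0454 and 0.0117. Values under the floor have no reliable order, which touches Cd163, Msr1, Cd163l1, Fabp7 and Clec5a.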
